A study of Homo sapiens with 4 samples.

Results

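MYOD bound 1102 sites in both arms of this experiment where neither arm had an H3K27ac peak over the site. They were chosen by overlap of the deposited peak lists: the MYOD peaks of the control and of the knockdown were joined where they overlapped, and a site was taken when it touched a peak of both MYOD lists and no peak of either H3K27ac list. The 1102 sites are 29.6% of the 3722 stable MYOD sites (those in both lists; 95% Wilson interval 28.2 to 31.1%), out of 10538 merged MYOD sites in all. The other stable sites had H3K27ac in both lists (1742), in the knockdown list alone (797) or in the control list alone (81). Presence in both MYOD lists and absence of H3K27ac over the site are therefore properties of the selection and not results.

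Chromatin immunoprecipitation followed by sequencing used RD, a long-established cell line from a rhabdomyosarcoma without a PAX fusion (FN-RMS), a tumor whose cells belong to the skeletal muscle lineage. The control (shSCR) carried a lentiviral shRNA without a target and is given the genotype WT. The knockdown (shSKP2) carried the vector called shSKP2.2, an shRNA against SKP2, the substrate receptor of the SCF ubiquitin ligase. Infected cells of both arms were selected with puromycin, and the time between infection and fixation is not given for these libraries in the sources used here. Each arm gave 1 library for MYOD and 1 for H3K27ac, so no value below has a replicate check. The 95% intervals cover counting error over sites, genes or hexamers, and no test between arms was possible. Read totals are not in the peak lists. As a proxy for depth, the smallest background under any peak was 1.48 and 1.94 fragments for MYOD in shSCR and shSKP2, and 1.75 and 1.61 for H3K27ac. The knockdown lists were longer, by 1.45 times for MYOD and by 1.52 times for H3K27ac. Of 10 skeletal muscle lineage genes, 8 had H3K27ac within 10 kb of the gene in the control and 9 in the knockdown, against 0 of 3 liver genes in either list, whereas all 4 epithelial genes had it too. DES was the muscle gene without H3K27ac in either list.

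MYOD is a basic helix-loop-helix factor that binds E-boxes, hexamers that begin with CA and end with TG, together with E proteins, and drives the skeletal muscle program. In muscle cells it binds far more places than there are muscle genes, and many of them carry no sign of enhancer activity. H3K27ac is an acetylated histone residue found on nucleosomes at active promoters and enhancers. Since the mark sits on nucleosomes, the factor-bound DNA of an active enhancer is usually a gap between marked flanks. A MYOD site without the mark over it can therefore be either such a gap or a place with no marked chromatin near it.

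The sequences below show both kinds. They are the reference sequence of 151 bases centred on the control MYOD summit (hg38, plus strand), for members with the strongest MYOD peaks, members that abut an H3K27ac peak without overlap, and members far from any. Capitals mark CAGCTG and CAGGTG, the latter read as CACCTG on the other strand.
RDH8, chr19:10027719-10027869: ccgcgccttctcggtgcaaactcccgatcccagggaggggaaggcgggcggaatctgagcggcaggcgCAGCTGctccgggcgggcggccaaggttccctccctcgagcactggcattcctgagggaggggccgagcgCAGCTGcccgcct
CHRDL2, chr11:74726608-74726758: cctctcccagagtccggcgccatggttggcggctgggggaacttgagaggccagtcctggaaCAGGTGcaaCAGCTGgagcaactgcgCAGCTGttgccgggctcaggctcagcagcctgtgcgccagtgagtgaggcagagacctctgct
FBRSL1, chr12:132430388-132430538: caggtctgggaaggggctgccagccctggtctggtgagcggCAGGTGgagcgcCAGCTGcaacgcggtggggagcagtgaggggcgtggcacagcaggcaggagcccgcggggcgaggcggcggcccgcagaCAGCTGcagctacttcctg
DKK1, chr10:52216962-52217112: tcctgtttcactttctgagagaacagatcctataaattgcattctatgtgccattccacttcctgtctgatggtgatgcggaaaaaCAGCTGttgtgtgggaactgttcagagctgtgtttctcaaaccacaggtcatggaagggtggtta
MYBPH, chr1:203173645-203173795: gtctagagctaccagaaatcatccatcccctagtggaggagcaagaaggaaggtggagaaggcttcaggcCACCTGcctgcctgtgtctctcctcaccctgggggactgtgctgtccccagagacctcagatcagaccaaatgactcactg
RGS17, chr6:153208811-153208961: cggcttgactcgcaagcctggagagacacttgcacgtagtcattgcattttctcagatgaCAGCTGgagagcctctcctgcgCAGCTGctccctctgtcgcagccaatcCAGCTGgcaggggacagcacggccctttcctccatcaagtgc
UBE3D, chr6:83019888-83020038: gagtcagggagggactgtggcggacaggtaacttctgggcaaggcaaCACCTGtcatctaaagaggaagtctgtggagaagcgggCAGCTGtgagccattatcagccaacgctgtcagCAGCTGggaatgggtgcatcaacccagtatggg
DAB1, chr1:57411450-57411600: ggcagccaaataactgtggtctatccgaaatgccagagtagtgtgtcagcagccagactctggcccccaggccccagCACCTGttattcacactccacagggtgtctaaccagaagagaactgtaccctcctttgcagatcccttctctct
Pericentromeric chromosome 1, chr1:125079979-125080129: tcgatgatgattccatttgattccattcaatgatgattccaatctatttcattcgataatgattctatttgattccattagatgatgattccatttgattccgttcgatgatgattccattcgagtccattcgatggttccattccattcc

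The member with the strongest MYOD peaks lay between genes, 14.3 kb from the start of RDH8, which encodes a retinol dehydrogenase (chr19:10027538-10028099). Its MYOD fold, the enrichment of the pileup at the summit over the local background, was 23.6 in shSCR and 25.4 in shSKP2. The window around its control summit held 2 CAGCTG, each flanked by G and C in the sequence above. The nearest H3K27ac peak was 58.0 kb away in shSCR and 77.9 kb in shSKP2. RDH8 thus combined the highest MYOD enrichment among the members with a long distance from marked chromatin.

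CHRDL2, which encodes a chordin-like binder of bone morphogenetic proteins, held a member in intron 1 (chr11:74726468-74726834). Its fold was 16.0 in shSCR and 16.3 in shSKP2, with H3K27ac 22 and 21.4 kb away. Its window held 2 CAGCTG and 1 CAGGTG. In contrast, the member named for DKK1, a secreted WNT inhibitor whose start was 97.2 kb away, lay in intron 9 of PRKG1 (chr10:52216919-52217184) inside a gap of marked chromatin. Its fold was 13.3 and 13.7, and H3K27ac peaks stood 28 bp away in shSCR and 25 bp away in shSKP2. These peaks flanked the site on both sides in both lists, with gaps of 46 and 28 bp in shSCR and of 43 and 25 bp in shSKP2. Both lists thus had no H3K27ac peak over this site, by selection, and a peak on either side of it.

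In the vicinity of FBRSL1 (chr12:132430195-132430580, 59.7 kb from its start) the flanks differed between the arms. The MYOD fold was 11.9 in shSCR and 16.0 in shSKP2. The shSCR H3K27ac list had no peak within 15.0 kb, whereas the shSKP2 list had peaks 72 bp to one side, with a fold of 5.13, and 86 bp to the other, with a fold of 4.72. SDC3, which encodes the heparan sulfate proteoglycan syndecan-3, showed the opposite order. Its intron 1 member (chr1:30885722-30886196) had a MYOD fold of 14.7 in shSCR and 12.8 in shSKP2, with H3K27ac 5 bp away in shSCR and 1.26 kb away in shSKP2. The other members among the 10 with the highest summed -log10 p lay in exon 4 of LRTM2 (12.5 and 13.3-fold) and at 3 places without a protein-coding start within 100 kb, on chromosomes 15, 16 and 22, with folds between 10.8 and 15.8 in shSCR and between 13.2 and 15.4 in shSKP2. Of these 10 members, 4 had an H3K27ac peak within 100 bp of the site in at least 1 list besides MYBPH, and the other 5 were more than 5 kb from any.

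MYBPH encodes myosin-binding protein H of the sarcomere and carried a member in intron 3, 2.11 kb from its start (chr1:203173606-203173921). The MYOD fold was 10.9 in shSCR and 12 in shSKP2, with a -log10 p of 52.9 and 84.2. In shSCR the nearest H3K27ac peak was 45.6 kb away. In shSKP2 an H3K27ac peak of 677 bp with a fold of 4.04 ended on the base before the site, and another of 299 bp with a fold of 2.68 began 190 bp beyond it. The -log10 p of these H3K27ac peaks was 14.0 and 6.12. The site met the criterion by 1 base, and at MYBPH the knockdown list had marked flanks where the control list had none. Its window had no CAGCTG and 1 CAGGTG.

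The MYOG promoter held a member as well. MYOG encodes myogenin, the MYOD-related factor that starts terminal differentiation. The merged site (chr1:203085952-203086381) spanned the start through its shSKP2 peak. The shSCR peak (chr1:203086075-203086381) did not reach the start, and the control summit stood 269 bp upstream of it. Within 100 bp of that summit there was no CAGCTG and no CAGGTG. The MYOD fold was 6.99 in shSCR and 5.77 in shSKP2. H3K27ac flanked it by 77 bp on the upstream side in shSCR, with a fold of 3.74, and on both sides in shSKP2, by 16 bp upstream with a fold of 3.52 and by 20 bp downstream with a fold of 2.87. The RefSeq promoter sequence (GRCh38.p14, chr1:203085963-203086262, minus strand, 250 bases before the start and 50 after) is shown because the merged site covered it. The shSCR peak covered only its upstream part. Capitals mark CANNTG E-boxes and TCAGGTTTC, the MEF3 element bound by sine oculis homeobox factors, searched on both strands.
MYOG promoter: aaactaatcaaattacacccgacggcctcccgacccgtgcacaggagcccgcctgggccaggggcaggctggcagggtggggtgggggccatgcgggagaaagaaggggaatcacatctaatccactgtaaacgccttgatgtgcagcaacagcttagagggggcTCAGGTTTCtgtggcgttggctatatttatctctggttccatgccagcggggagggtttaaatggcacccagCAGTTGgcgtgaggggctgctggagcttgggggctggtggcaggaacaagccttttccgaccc

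It held 1 E-box, CAGTTG, 13 bases before the start, and 1 TCAGGTTTC, 85 bases before it. The shSCR MYOD peak did not reach this E-box, and the control summit lay outside the promoter sequence shown. An E-box of any kind (CANNTG) was present in 68.7% of 35116 RefSeq promoters of this length, CAGTTG in 11.4% and TCAGGTTTC in 0.362%. No member lay within 10 kb of SKP2, MYOD1, MYL1, MYH2, CDKN1A, CDKN1B or CDKN1C.

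H3K27ac close to the site, as at DKK1, MYBPH and MYOG, was found at a minority of members. An H3K27ac peak of either list, on at least 1 side, lay within 200 bp of 406 of the 1102 sites (36.8%). Widening the distance from 200 to 500 bp added few, to 455 sites, so the mark was either close to the edge of the site or well away from it. The same sites moved by 20 kb to either side, without those that then touched a MYOD or H3K27ac peak, had H3K27ac within 200 bp in 1.12% of 2134 cases (interval 0.757 to 1.67%). MYOD sites of 1 list without H3K27ac over them had it within 200 bp in 22% of 3801 cases, 14.8 points less than the members (Newcombe interval of the difference 11.7 to 18.0 points). Both sides were flanked within 200 bp at 136 members (12.3%) when peaks of either list were counted.

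**Figure D1:**
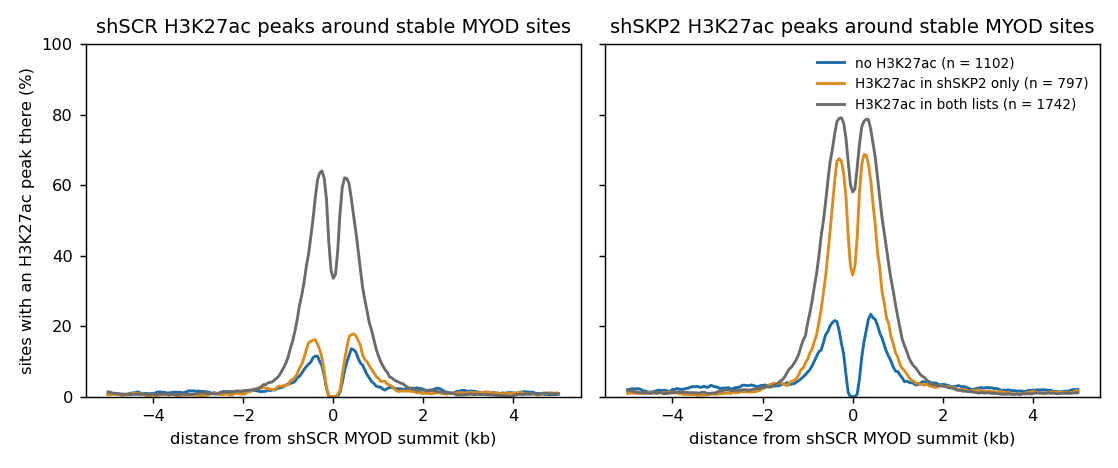
Share of stable MYOD sites (%) with an H3K27ac peak at each distance from the control MYOD summit (kb), for the control list on the left and the knockdown list on the right, with sites grouped by H3K27ac overlap. The members have no peak at the summit by selection and reach 13.6% in shSCR and 23.4% in shSKP2 at 400 bp from it, and the sites marked in both lists dip at the summit too.

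At members the share of sites under an H3K27ac peak was highest 400 bp from the summit, at 13.6% in shSCR and 23.4% in shSKP2, and fell to 0.726% and 2.04% at 5 kb. Stable sites marked in both lists also dipped at the summit, from 64.0% at 250 bp to 33.6% at the summit in shSCR and from 79.1% to 58.0% in shSKP2. Of the 2620 stable sites with H3K27ac over some part of them, 1291 (49.3%) had no H3K27ac peak over the MYOD summit itself. The value of 0 at the summit of the members is set by the selection, and 696 members (63.2%) had no H3K27ac peak within 200 bp and 471 (42.7%) none within 5 kb.

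The sites on either side of the criterion were close to each other. Among members, 39 (3.54%) had an H3K27ac peak within 10 bp and 4 abutted one. Among the other stable sites, 19 (0.725%) were touched by at most 10 bp of H3K27ac. The 4 abutting members were those at MYBPH, in intron 7 of UBE3D (MYOD fold 7.33 in shSCR and 9.95 in shSKP2), 77.6 kb from RGS17, a regulator of G-protein signaling (8.06 and 7.60), and 85.0 kb from CMPK2, a mitochondrial nucleotide kinase (7.76 and 6.73). The H3K27ac peak that they abutted was in the shSKP2 list in each case. At RGS17 and CMPK2 the shSCR list had a peak 60 and 29 bp away, whereas at UBE3D it had none within 39.1 kb.

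H3K27ac peaks near the members were more numerous in the shSKP2 list. A peak lay within 200 bp of 218 members in shSCR (19.8%) and of 376 in shSKP2 (34.1%). It was there in both lists at 188 members, in shSKP2 alone at 188 (17.1%) and in shSCR alone at 30 (2.72%). Over all 4903 MYOD sites that no H3K27ac peak overlapped, 13.3% had such a flank in shSKP2 alone and 1.79% in shSCR alone. The excess of knockdown flanks was therefore seen at members and at MYOD sites of 1 list, where it was 12.2% against 1.53%. Where only shSKP2 had the flank, the nearest shSCR peak was a median of 16956 bp away (interval 12508 to 22964 bp), and at 141 of 188 sites (75%) it was farther than 5 kb. The shSKP2 H3K27ac list was 1.52 times longer and its peaks wider, with a median of 487 bp against 363 bp.

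These counts depended on the length of the list. When the shSKP2 H3K27ac list was cut to its 25356 peaks of highest -log10 p, the number in the shSCR list, which left peaks with a -log10 p of at least 8.70, the flank was found at 271 members in shSKP2 (24.6%, interval 22.1 to 27.2%), at 101 in shSKP2 alone (9.17%, 7.60 to 11%) and at 48 in shSCR alone (4.36%, 3.30 to 5.73%). Over all MYOD sites that no H3K27ac peak overlapped these shares were then 7% and 3.26%. Within 5 kb the shSKP2 share was 39.9% with this list, beside 37.2% in shSCR. Among the sites described here, the shSKP2 flanks of FBRSL1, UBE3D, MAMSTR, PPARGC1B and MYOG and the abutting one of MYBPH had a -log10 p above 8.70, whereas those of GRPEL1, MRPS6 and ATP2A1 and the abutting one of CMPK2 did not (5.26, 8.11, 5.13 and 7.03).

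**Figure D2:**
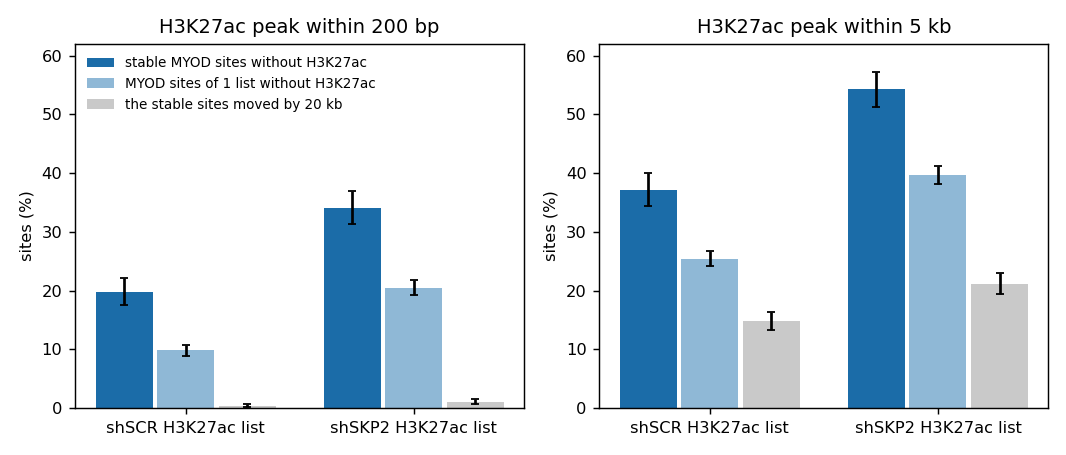
Share of sites (%) with an H3K27ac peak within 200 bp (left) and within 5 kb (right) in each H3K27ac list, with 95% Wilson intervals as error bars. The stable sites without H3K27ac over them, the members, stand at 19.8% and 34.1% within 200 bp, above the MYOD sites of 1 list (9.79% and 20.5%) and above the same sites moved by 20 kb (0.281% and 1.03%).

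Within 200 bp of a member, the nearest H3K27ac peak had a median fold of 3.91 in shSCR (interval 3.82 to 4.04, 218 sites) and of 4.24 in shSKP2 (4.05 to 4.45, 376 sites). Their median width was 376 bp in shSCR and 452 bp in shSKP2. Both flanks were marked at 59 members in shSCR and at 123 in shSKP2. Within 5 kb, H3K27ac was found at 410 members in shSCR (37.2%, interval 34.4 to 40.1%) and at 598 in shSKP2 (54.3%, 51.3 to 57.2%). For the sites moved by 20 kb these shares were 14.8% and 21.1%.

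At the other end, 124 members (11.3%) had no H3K27ac peak of either list within 50 kb, and 347 had one at 5 to 50 kb. The 5 farthest members included an intron 1 site of DAB1, a Reelin pathway adaptor of neurons (chr1:57411398-57411824), with MYOD folds of 12.5 in shSCR and 9.07 in shSKP2 and H3K27ac 1134 kb away in both lists. The farthest site lay beside the centromere of chromosome 1 (chr1:125079859-125080326), 3521 kb from shSCR H3K27ac. Its folds were low, 3.73 and 3.29, and the sequence printed above is a run of short related repeats without CAGCTG or CAGGTG, so that reads of other copies could have been placed there. Other remote members lay at 5.51 Mb on chromosome 1 (chr1:5510012-5510346; 8.11 and 7.56-fold) and on chromosome 10 (chr10:121310268-121310551; 4.31 and 6.64-fold). The member in intron 12 of TSNARE1 on chromosome 8 had folds of 5.90 and 4.99.

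MYOD enrichment at the members was of nearly the same height in both arms. The median fold was 6.36 in shSCR (interval 6.16 to 6.54, quartiles 5.03 and 8.17) and 6.52 in shSKP2 (6.37 to 6.73, quartiles 5.15 and 8.44). The pileup at the summit was a median of 23 fragments in shSCR and 28 in shSKP2, over a local background of 2.75 and 3.29. On the log2 scale the median ratio of the folds, shSKP2 over shSCR, was 0.03 (interval 0.01 to 0.06), beside 0.05 over all stable sites. Its direction did not hold: it was -0.05 with the library-wide background in place of the local one and -0.01 without the 1 that the peak caller adds to pileup and background. The fold was at least 1.5 times higher in shSKP2 at 79 members (7.17%), beside 6.82% of all stable sites, and at least 1.5 times lower at 44 (3.99%), beside 3.33%. The members thus moved as the stable sites in general did.

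**Figure D3:**
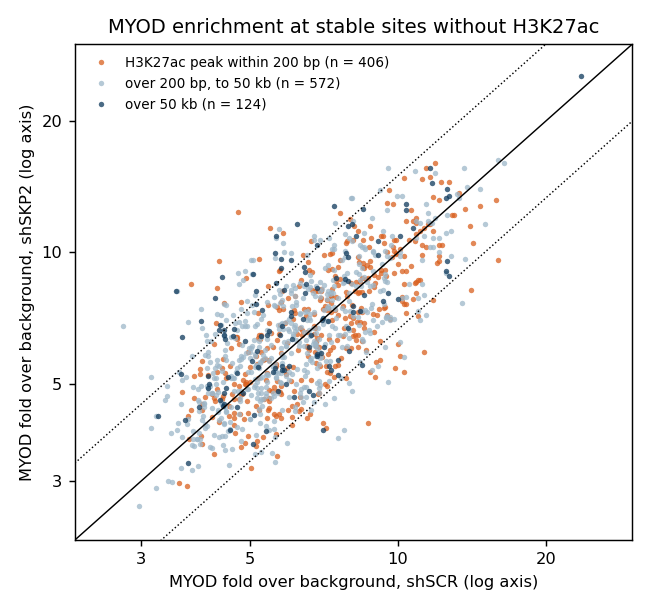
MYOD fold over background at each of the 1102 members in shSCR (horizontal, log axis) and shSKP2 (vertical, log axis), colored by the distance to the nearest H3K27ac peak of either list; the solid line marks equal folds and the dotted lines a ratio of 1.5. Points lie along the line of equal folds, and RDH8 stands alone at the upper right with 23.6 and 25.4.

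MYOD enrichment at the members was slightly lower than at sites marked in both lists. Those stable sites had a median fold of 6.74 in shSCR (interval 6.58 to 6.94) and 7.11 in shSKP2 (6.91 to 7.28), and sites with H3K27ac in shSKP2 alone had 6.39 (6.23 to 6.71) and 7.04 (6.73 to 7.21). The summits of both lists stood a median of 16.0 bp apart at the members, and within 50 bp at 79.6% of them, against 78.8% at sites marked in both lists (difference 0.765 points, interval -2.33 to 3.78). The members were narrower, with a median of 333 bp for the merged site against 460 bp where both lists had H3K27ac. Width is bound up with a selection by overlap, and the source of this difference was not tested.

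MYOD enrichment differed between the nearest and the farthest distance class in shSCR, and less so in shSKP2. Members within 200 bp of a peak had a median fold of 7.01 in shSCR and 6.90 in shSKP2, and members beyond 50 kb 6.05 and 6.75. The median log2 ratio was 0.16 beyond 50 kb (interval 0.09 to 0.26) 0.03 at 5 to 50 kb (-0.01 to 0.07) and 0.08 between 200 bp and 5 kb (0.01 to 0.14), and its interval within 200 bp was -0.06 to 0.02, so the ratio had no steady order with distance. Of the 124 remote members, 18 (14.5%, interval 9.38 to 21.8%) had a fold at least 1.5 times higher in shSKP2 and 2 at least 1.5 times lower. Over all stable sites these shares were 6.82% and 3.33%. They were 4.19% and 5.42% at members within 200 bp of H3K27ac, and 9.77% and 3.18% at all members beyond 5 kb. With the library-wide background the medians were 0.22 beyond 50 kb (interval 0.07 to 0.31) and -0.14 within 200 bp (-0.24 to -0.10), whereas without the added 1 the remote members gave 0.06 (interval -0.03 to 0.15). The local background was lower at the remote members, 2.30 in shSCR against 3.06 at the flanked ones, and its part in the ratio was not tested beyond these settings.

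Among members with a -log10 p of at least 10 in both lists, the ratio of folds ranged from 0.52 to 2.07. The highest ratios were in introns of PLCL1 (fold 5.49 in shSCR and 11.4 in shSKP2) and of CDKAL1, a tRNA-modifying enzyme (5.84 and 11.1), near TNFAIP8L1 (5.20 and 9.67), near ITGA4, the integrin alpha 4 subunit (4.89 and 9.06), and in intron 1 of EMP2 (6.24 and 11.6). The lowest were near GRPEL1, a cofactor of mitochondrial chaperones (10.3 in shSCR and 5.33 in shSKP2), near SLA (11.3 and 5.91), near MRPS6 (9.85 and 5.43), near PGLS, an enzyme of the pentose phosphate pathway (10.3 and 5.77), and near FERMT2, the integrin activator kindlin-2 (13.5 and 7.67). Flanks that were near in shSKP2 and far in shSCR were found at both ends of this order. Among the high ratios, PLCL1 had H3K27ac 191 kb away in shSCR and 32 bp away in shSKP2, and TNFAIP8L1 1.01 kb and 3 bp. Among the low ratios, GRPEL1 had it 30.6 kb and 69 bp away and MRPS6 43.9 kb and 39 bp, with shSKP2 peaks that the shortened list did not hold.

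The E-boxes differed between members and sites marked in both lists in their kind more than in their presence. CAGCTG lay within 100 bp of the control summit at 791 members (71.8%, interval 69.0 to 74.4%), against 10.4% in windows 2 kb away. Sites with H3K27ac in both lists had it at 70.8%, a difference of 0.998 points (interval -2.44 to 4.37). In contrast, CAGGTG was present at 52.2% of members and at 38.7% of sites marked in both lists, a difference of 13.4 points (interval 9.68 to 17.1). CAGATG was present at 22.1% and 15.7% (difference 6.32 points, 3.37 to 9.34), and 2 or more CAGCTG at 27.8% and 21.8% (6.01 points, 2.76 to 9.31). Only 5.26% of members had neither CAGCTG nor CAGGTG, against 9.13%. Outside promoters the difference in CAGGTG was 15.0 points (10.9 to 19.1), that in CAGATG 4.87 points (1.48 to 8.31), and that in 2 or more CAGCTG 3.12 points, with an interval that reached below 0 (-0.563 to 6.83).

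The sites that had H3K27ac in the knockdown list alone had 2 or more CAGCTG less often than the members, at 23.7% (members higher by 4.05 points, interval 0.0507 to 7.97). For the presence of each of the following hexamers the interval of the difference included 0. CAGCTG was present at 69.8% of them (members higher by 2.02 points, interval -2.10 to 6.19), CAGGTG at 50.1% (members higher by 2.12 points, interval -2.43 to 6.66) and CAGATG at 21.5% (0.595 points, -3.20 to 4.31). MYOD sites of 1 list without H3K27ac had CAGCTG at 55% (members higher by 16.8 points, 13.6 to 19.8) and CAGGTG at 48.8% (3.40 points, 0.0487 to 6.74).

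**Figure D4:**
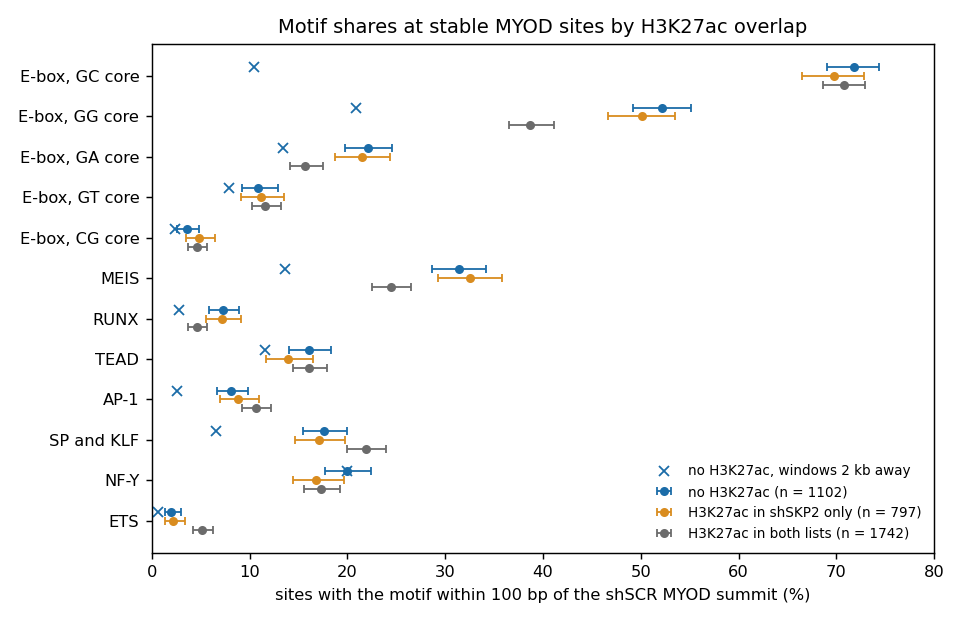
Share of stable MYOD sites (%) with each motif within 100 bp of the control summit, by H3K27ac overlap, with 95% Wilson intervals as error bars; crosses give the members' windows 2 kb away. E-boxes are named by their central base pair, so that the GC core is CAGCTG and the GG core CAGGTG, and the GG core separates the members (52.2%) from the sites marked in both lists (38.7%).

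CAGCTG stood near the summit. The nearest one was a median of 11.5 bp from the control summit at the members that had it (interval 10.5 to 12.5 bp, 791 sites), and within 50 bp at 90.0% of them. The distance was 10.5 bp at sites marked in both lists. With 1 more base on each side, ACAGCTGC was the most frequent form, at 24.3% of 1228 CAGCTG hexamers (interval 22 to 26.7%), followed by GCAGCTGC at 16.5% and ACAGCTGG at 16.1%, each counted together with its reverse complement. In windows 2 kb away these made up 8.73%, 7.94% and 11.1% of 126 hexamers. TCAGCTGA was rare at the summits, at 0.733% against 4.76%. At CAGGTG the leading forms were GCAGGTGG (15.8% of 726) and ACAGGTGC (15.7%). Sites marked in both lists had ACAGCTGC at 26.4% of 1687 hexamers, and CCAGCTGG at 2.07% (interval 1.5 to 2.87%) where the members had 4.23% (3.24 to 5.51%). CCAGCTGG was 1 of several forms compared. The intervals of these forms treat hexamers as separate although 1 site can hold several, so they are too narrow as error over sites.

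Other motifs were compared in the same windows. TGACAG, the core bound by the homeodomain factors MEIS and TGIF, was present at 31.4% of members, 13.6% of windows 2 kb away and 24.5% of sites marked in both lists (difference 6.94 points, interval 3.56 to 10.4; outside promoters 4.38, 0.549 to 8.23). TGTGGTT, bound by RUNX factors, was present at 7.26% and 4.59% (2.67 points, 0.904 to 4.57), but outside promoters its interval reached below 0. TGACTCA, the AP-1 site bound by FOS and JUN, was less frequent at members than at marked sites, at 8.08% against 10.6% (-2.54 points, -4.67 to -0.320; outside promoters -3.81, -6.35 to -1.20). GGGCGG, bound by SP and KLF factors, and CCGGAAG, bound by ETS factors, were also lower, by 4.32 and 3.11 points, and outside promoters these differences were -0.865 and -0.413 points with intervals that included 0. The CTCF motif, which marks many insulators, was found at 17 members (1.54%) and at 0.517% of marked sites (1.03 points, 0.286 to 1.97). Sites with H3K27ac in shSKP2 alone had TGACAG at 32.5%, TGTGGTT at 7.15%, TGACTCA at 8.78%, GGGCGG at 17.1% and CCGGAAG at 2.13%. For each of these 5 motifs the interval of the difference from the members included 0. The CTCF motif was at 0.125% of those sites (members higher by 1.42 points, 0.598 to 2.34). TGACAG and TGACTCA share their leading letters TGAC, and a match says nothing about binding.

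Within the members the flanked and the remote sites differed in composition. Members within 200 bp of H3K27ac had a median GC content of 47.7% in 501 bp (interval 46.5 to 48.7%), whereas those at 5 to 50 kb had 55.7% (54.3 to 56.7%) and those beyond 50 kb 54.1% (51.7 to 56.1%). TGTGGTT was present at 11.3% of members within 200 bp and at 5.52% of those beyond 5 kb (5.81 points, 2.15 to 9.67), TGACTCA at 11.6% and 6.58% (4.99 points, 1.20 to 8.96), and GGAATG, bound by TEAD factors, at 19.5% and 13.8% (5.66 points, 0.731 to 10.7). GGGCGG showed the reverse, 12.1% against 19.3% (-7.25 points, -12 to -2.41). CAGCTG was present at 75.4% and 70.5% (4.88 points, -1.04 to 10.7), and CAGGTG at 48.8% and 53.5% (-4.73 points, -11.3 to 1.89), so that no difference in the main E-boxes was detectable at these numbers of sites.

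Members were less often at promoters than sites with H3K27ac, a difference bound up with the selection because the mark is found at active promoters. A control summit within 2 kb of the start of a canonical protein-coding transcript was found at 136 members (12.3%, interval 10.5 to 14.4%), against 26.9% of sites marked in both lists (-14.5 points, -17.3 to -11.6) and 16.1% of those marked in shSKP2 alone (-3.72 points, -6.98 to -0.558). Gene bodies outside promoters held 47.8% of members and 41.8% of marked sites, and 39.8% and 31.3% were intergenic. The nearest start was a median of 35.6 kb away (interval 30.6 to 40.9 kb), and 269 members (24.4%) had none within 100 kb. The GC content of members was 52.5% and that of sites marked in both lists 54.7%. The ratio of observed to expected CpG was 0.237 and 0.297.

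Of the 136 promoter members, 42 had H3K27ac within 200 bp of the site, 46 at 201 bp to 5 kb, 41 at 5 to 50 kb and 7 beyond 50 kb. The site itself spanned the start at 37 of them. One was RAPSN, which encodes rapsyn, the protein that clusters acetylcholine receptors at the neuromuscular junction (chr11:47448899-47449382). Its MYOD fold was 10.9 in shSCR and 10.8 in shSKP2, its summit lay 39 bp from the start, and H3K27ac was 22.4 kb away in both lists. RAPSN therefore had a stable MYOD peak on its promoter without an H3K27ac peak near it in either list, unlike MYOG.

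Members were found near muscle genes of several kinds. Of 183 genes of the muscle lists, 17 (9.29%, interval 5.88 to 14.4%) had a member in the gene or within 10 kb of it, beside 4.89% of all 20033 protein-coding genes. A stable MYOD site of any kind was there at 37.7% of the muscle genes and 15.7% of all genes, with median gene lengths of 28.5 and 27.5 kb. Counting each stable site with each gene whose domain held it, 18 of 89 pairs (20.2%) at muscle genes were without H3K27ac, against 27.2% of 3857 pairs over all genes. Of 163 genes of the other lists, 5 (3.07%) had a member.

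Among the 26 myogenic regulators, MYOG, TCF4, MAMSTR, PAX3 and EYA1 had a member (19.2%, interval 8.51 to 37.9%, beside 4.89% of all genes). TCF4, an E protein that can pair with MYOD, carried it in intron 3 (chr18:55577806-55578088; MYOD fold 11.2 in shSCR and 9.61 in shSKP2), and MAMSTR, a coactivator of MEF2 factors, in coding exon 7 (chr19:48714391-48714633; 7.77 and 8.85). H3K27ac was 11.2 and 9.12 kb from the TCF4 site, and 4.30 kb in shSCR and 380 bp in shSKP2 from the MAMSTR site. Among 36 genes of the neuromuscular junction and of fusion, RAPSN, DYSF, DAG1, DOK7, UTRN and MYMK had one (16.7%, interval 7.87 to 31.9%). UTRN, which encodes utrophin, the relative of dystrophin, had it in intron 53 (chr6:144726158-144726409) with folds of 11.9 and 15.2, and DAG1, which encodes dystroglycan, had it 10.8 kb from the start (chr3:49459252-49459535) with folds of 7.0 and 8.24.

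Among 61 sarcomere genes, 4 had a member, MYBPH, DES, MYOM3 and MYOM2 (6.56%, interval 2.58 to 15.7%, beside 4.89% of all genes). The one near DES, which encodes the muscle intermediate filament desmin, lay 3.97 kb from the start of SPEG (chr2:219430569-219431025), with a fold of 7.94 in shSCR and 7.74 in shSKP2 and 2 CAGCTG. SPEG, a kinase of striated muscle, held 3 members within 10 kb, all of its stable sites. The others, picked after their values were seen, were in intron 1 (12.8 and 9.82-fold) and intron 3 (8.22 and 6.31-fold). H3K27ac was 21.5, 12.5 and 6.83 kb from these 3 sites in shSCR, and 14.7 kb, 5.72 kb and 37 bp in shSKP2. Along this stretch the knockdown list thus had marked chromatin nearer to each of the sites than the control list. The distances changed from site to site by about the same amount in both lists. They would do so if a single peak per list were nearest to all 3 sites, so these are not separate observations. Whether the shortened shSKP2 list held the knockdown peak was not tested. MYOM3, a protein of the M-band, had its member in intron 5 (7.91 and 6.72-fold), 55.3 and 55.2 kb from H3K27ac.

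ATP2A1, the calcium pump SERCA1, was the one gene of 29 in excitation-contraction coupling with a member (coding exon 5, chr16:28882449-28882883; 7.34 and 10.2-fold; H3K27ac 2.06 kb away in shSCR and 221 bp in shSKP2). PPARGC1B, a coactivator of mitochondrial genes, was the one of 31 in muscle energy metabolism (intron 1; 6.94 and 7.78-fold; 1.69 kb and 199 bp). At MAMSTR, ATP2A1 and PPARGC1B the nearest H3K27ac peak was thus within 400 bp in shSKP2 and beyond 1 kb in shSCR. Of 26 genes of the RAS-ERK and AP-1 response, DUSP6, a phosphatase of ERK, had a member 6.65 kb from its start (4.63 and 4.17-fold) with H3K27ac 65 and 58 bp away, and SPRY1, a feedback inhibitor of the pathway, had one at 10.4 kb (7.23 and 7.47-fold) with H3K27ac 6.41 and 6.35 kb away. CDK6 was the one of 36 cell cycle genes (intron 3; 3.45 and 3.87-fold). MBP, which encodes myelin basic protein, and GRIN1, an NMDA receptor subunit, were 2 of 28 genes of neurons and glia, with folds of 6.17 and 4.44 and of 6.12 and 6.52. None of the 13 CDK inhibitors and pocket proteins, 16 housekeeping genes, 22 genes of blood and endothelium or 22 of epithelium and liver had a member. The share over all protein-coding genes was 4.89%. The upper limits for these lists were 22.8%, 19.4%, 14.9% and 14.9%, so lists this short do not show an absence. For each list of this paragraph with 1 or 2 such genes, the interval also included 4.89%.

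The 5 members with the most CAGCTG included 2 in genes of the KRTAP family. Intron 2 of TMCO3 had 10 within 100 bp of the summit (4.10-fold in shSCR, 4.76-fold in shSKP2) and a member in intron 24 of GAK, near CPLX1, had 8 (4.62 and 6.44-fold). The coding exons of KRTAP5-3 (8.44 and 5.54-fold) and KRTAP4-16 (5.23 and 5.62-fold), which encode keratin-associated proteins of hair, had 6 and 5, and the 3' UTR of ZNF778 had 5 (7.42 and 7.51-fold). Around the 94 KRTAP genes, 8 of the 10 stable MYOD sites were members, beside 29.6% of all stable sites. The family was not among the planned gene lists, and the 8 include the 2 members just named, so this share is descriptive only. The 8 had folds of 3.40 to 11.6 in shSCR and 3.0 to 15.6 in shSKP2. CAGCTG was present at 6 of the 8, beside 71.8% of all members. These genes are close copies of each other, and how reads that matched several copies were placed is not given in the sources used here, so the split of signal among them is uncertain.

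Members were spread over the genome. On chromosomes with at least 20 stable sites, the share of stable sites without H3K27ac ran from 23.2% on chromosome 20 to 60.0% on chromosome 13, where 15 of 25 sites were members (interval 40.7 to 76.6%). Another member lay within 10 kb of 33 members (2.99%) and within 50 kb of 128 (11.6%), so most stood alone. The largest number of members in 1 gene domain was 3, at C7orf50, EXOC4, IQSEC1, NFIX, SPEG and TMPRSS9.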

How the data were processed

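Peak lists of 4 ChIP-seq libraries were used, MYOD and H3K27ac in shSCR and shSKP2 RD cells, grouped by sample title. Per the study's methods, fixed chromatin was digested with micrococcal nuclease, Drosophila chromatin was added as spike-in, and peaks were called per library with MACS3 against input. The submitters' processing notes name BWA 0.7.17, MACS3, deepTools, GRCh38/hg38 and dm3. The methods state that samples were scaled by mapped spike-in reads but not whether this preceded peak calling. Folds are relative to each library's own background. The authors deposited for each peak a score, a fold (ratio of summit pileup to local background), a -log10 p and a -log10 q. The smallest -log10 p was 4.00, below the stated threshold of 5, which 2.41 to 4.13% of peaks of a list missed. Sites were built on the autosomes and X and Y alone, which dropped 1 peak from each H3K27ac list.

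Pileup and background were recovered from the fold and p of each peak, and a whole pileup fitted the -log10 p within 0.001 for every peak except 1 of the 8457 in the shSKP2 MYOD list. A site took the values of its peak with the highest -log10 p in each list. Motifs were searched on both strands within 100 bp of the shSCR summit. Genes were the protein-coding genes of GENCODE 44, a gene domain was the gene with 10 kb on each side, and a promoter reached 2 kb from the canonical start. Intervals are Wilson (shares), Newcombe (differences) and order-statistic (medians), all 95%. Functions were tested on simulated data. Python 3.11.15 with pandas 2.3.3, numpy 2.4.6, scipy 1.17.1 and pysam 0.24.0 was used. Members, gene lists and comparisons were chosen with earlier results of these data known. Named sites were the 10 with the highest summed -log10 p, the 5 largest and 5 smallest fold ratios, those at 9 loci of the study, the 3 strongest genes per list, the 5 nearest to and farthest from H3K27ac, and the 5 with the most CAGCTG, each named by the nearest start within 100 kb. One of these is not reported here. Alternatives were other thresholds, overlaps, list lengths, backgrounds, windows and domains.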

Additional observations from a re-analysis of the deposited data

How the results depend on the processing

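No paired analysis was possible because each group has 1 library, and for the same reason no library could be left out. Of 113 values under 17 settings, 64 stayed within the interval of the reported value, or within 1.5 times for the number of sites, 47 moved beyond it, and in 2 cases a median log2 ratio whose interval excluded 0 took the other sign. The CAGCTG difference from marked sites, 0.998 points with an interval that included 0, also took the other sign, at -0.192 points with MYOD peaks of a -log10 p of at least 10, -1.18 without H3K27ac within 500 bp and -0.638 with all lists shortened. The fold without the added 1 and the shortening of the shSKP2 H3K27ac list alone were chosen after seeing the data. Apart from settings that redefine the measure or the list, the cause of a move was not tested.

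The median log2 ratio of MYOD folds at members, 0.03 as reported, was -0.05 with the library-wide background and -0.01 without the added 1, 0.07 without H3K27ac within 500 bp and 0.08 with all lists shortened. Members at least 1.5 times higher in shSKP2 made up 9.62%, 5.17%, 8.96% and 8.19% under these settings, and those lower 11.1% and 5.90% under the first pair and 2.76% with shortened lists. With MYOD peaks of a -log10 p of at least 10 there were 715 members (28.0% of stable sites), with a control fold of 7.42, CAGCTG at 75.9%, 4.48% higher by 1.5 times, a promoter difference from marked sites of -10.1 points, and H3K27ac within 5 kb at 41.1% in shSCR and 59.0% in shSKP2. With H3K27ac peaks of a -log10 p of at least 10, 41.9% of stable sites were members, 17.9% and 32.9% of them within 5 kb of H3K27ac. Without H3K27ac within 500 bp, 647 members (17.4%) were left, with a fold of 6.05 and 18.5% and 25.3% within 5 kb. Counting a site as marked only when H3K27ac covered 50% of it gave 2008 members (53.9%), a fold of 6.71, a CAGCTG difference of 5.51 points, a promoter difference of -23.5 points, 53.7% and 73.8% within 5 kb, and 21.3% of muscle genes. With 50% reciprocal overlap of MYOD peaks the fold was 6.56. All lists shortened gave 34.8% of stable sites, a fold of 6.65 and H3K27ac within 5 kb at 36.9% in shSCR and 39.4% in shSKP2, so the arms then differed by less than the reported 37.2% and 54.3%. Shortening the shSKP2 H3K27ac list alone gave flanks within 200 bp at 24.6%, in shSKP2 alone at 9.17% and in shSCR alone at 4.36%.

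Narrowing the motif window to 50 bp gave CAGCTG at 63.5%. Promoters held 9.62% of members within 1 kb of a start and 18.1% with the starts of all transcripts. H3K27ac lay within 1 kb of 25.2% and 40.4% of members and within 10 kb of 46.1% and 63.2%. With gene domains of 50 kb, 17.5% of muscle genes held a member. No value moved when peaks with a -log10 p under 5 were dropped. With the window taken around the shSKP2 summit, the CAGCTG share and its difference from marked sites did not move. No other motif was followed through any of these settings, so whether the other motif differences hold under them was not tested. Depth is known only by proxy, so a MYOD or H3K27ac peak missing from a list is not shown to be absent from the cells.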
